A study of Mus musculus with 13 samples.

Results

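Transcripts of 34 genes of autophagy, mitophagy and the lysosome were followed in the quadriceps of young and aged mice. The genes were picked by name for their known roles and not by a rule on measured values, though with earlier results of these data known, and all 34 were found among the 24015 genes of the deposited expression table. All 34 reached 1 TPM (a transcript abundance scaled for transcript length and library total) in at least 3 of 13 libraries, the level required for testing, which 11876 genes reached. RNA was taken from whole muscle of C57BL/6 mice that had all received a daily intraperitoneal injection for 4 weeks. Batch 1 held 4 libraries from young mice (labelled 3 months; replicates 1, 3, 4 and 5) and 3 from aged mice (labelled over 24 months; replicates 2, 3 and 4), all given vehicle, a mixture of ethanol, Cremophor EL and dextrose water. Batch 2 held 3 libraries from aged mice given the same vehicle (replicates 2, 3 and 8) and 3 from aged mice given SW033291 at 5 mg/kg (replicates 1, 4 and 6). SW033291 is an inhibitor of 15-PGDH, the enzyme that breaks down prostaglandin E2. No young library belonged to batch 2 and no treated library to batch 1, so age was compared within batch 1 and the inhibitor within batch 2, in aged mice only. The labels give neither the sex of the mice nor a statement that libraries are from different animals. The p-values therefore reflect how these libraries vary, which may be technical.

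Autophagy delivers cytoplasm, protein aggregates and organelles to the lysosome. A kinase complex (ULK1, ULK2, ATG13 and FIP200) and a lipid kinase complex (VPS34, Beclin 1 and ATG14) start a membrane sheet, and a conjugation machinery attaches proteins of the ATG8 family to it. In the endosomal form of the lipid kinase complex, UVRAG takes the place of ATG14. Receptors such as p62 link cargo to the ATG8 proteins, BNIP3, NIX, FUNDC1 and the PINK1 and parkin pair mark mitochondria for removal, and cathepsins digest what the lysosome receives. In skeletal muscle the pathway is induced by fasting and denervation through FoxO factors, and its loss leads to weakness and abnormal mitochondria. Transcript levels do not measure autophagic flux. The flux consumes the LC3 and p62 proteins, whose levels were not measured here.

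For the tissue label, all 10 muscle fibre markers were present and summed to between 119153 and 173375 TPM per library. In batch 1 their sum was 167720 to 171918 TPM in young and 119153 to 156207 TPM in aged libraries, without overlap. The 34 genes together made up between 0.428% and 0.558% of all TPM. TPM keep no read counts, and library depth is unknown. In the authors' deposited table of SW033291 against vehicle the mean normalised counts of the 34 genes begin at 39.3, for Park2. Replicate 4 of the aged libraries of batch 1 stood apart. It held 24221 TPM of Acta1, the skeletal actin, against 46887 to 51313 in the other libraries of batch 1, and its neutrophil markers summed to 1723 TPM against 0 to 3.55 there. Replicate 2 of the aged vehicle libraries and replicate 4 of the SW033291 libraries in batch 2 also held neutrophil transcripts, 749.9 and 223 TPM in sum against at most 13.8 in the other libraries. In bulk RNA, fewer cells of a type and less RNA per cell cannot be told apart.

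**Figure D1:**
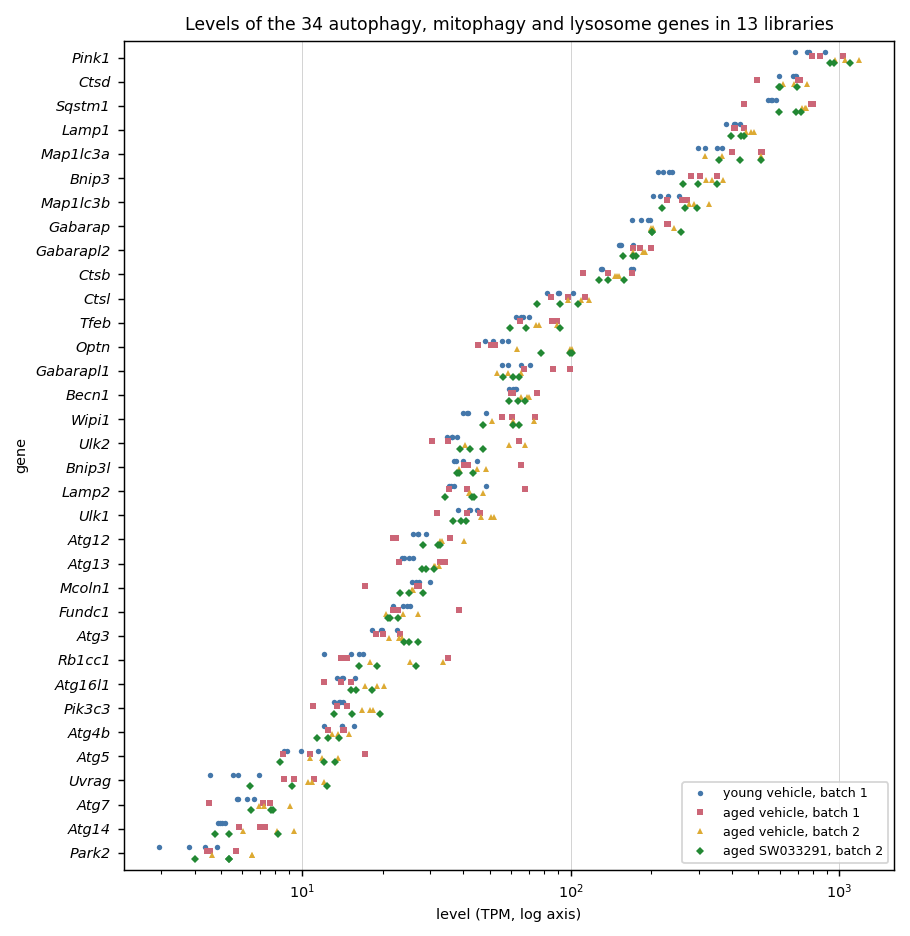
Level of each of the 34 genes in TPM on a log axis, with 1 point per library and colours for the 4 groups. Pink1, Ctsd and Sqstm1 were highest, at means of 918, 654 and 653 TPM, and Park2 was lowest, at 4.85 TPM. The libraries of a gene spanned at most 2.90-fold, in Rb1cc1, less than the range from Park2 to Pink1. Genes of similar mean, such as Ctsd and Sqstm1, overlapped.

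The genes covered a wide range of levels. On the TPM scale, which corrects for length, Pink1 was the most abundant at a mean of 918 TPM over the 13 libraries, above 99.0% of the tested genes. It encodes the kinase that flags damaged mitochondria. Cathepsin D (Ctsd, 654 TPM), p62 (Sqstm1, 653 TPM), the lysosomal membrane glycoprotein Lamp1 (426 TPM) and the LC3 gene Map1lc3a (403 TPM) followed. The ranges of Ctsd and Sqstm1 overlapped, as did those of Lamp1 and Map1lc3a, so these neighbours cannot be ordered. Parkin (Park2), the ubiquitin ligase that acts with PINK1, was the lowest at 4.85 TPM, close to Atg14 (6.32 TPM) and Atg7 (6.85 TPM). The ratio of the highest to the lowest library ran from 1.27 in Lamp1 to 2.90 in Rb1cc1, the gene of FIP200.

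With age, in batch 1, none of the 34 genes passed the test (limma, adjusted p under 0.05 over all tested genes, called in 0.455% of them). Their log2 differences, on the log2(TPM + 1) scale and aged minus young, were positive in 25 of 34, beside 61.2% of all tested genes. The median was 0.18 against 0.06 over all genes. At an unadjusted p under 0.05 there were 7 genes, all with higher means in aged muscle, where 7.2% of all genes were. They were the mitophagy receptor Bnip3, Wipi1, Uvrag and 4 of the 5 ATG8 genes. The aged libraries lay wholly above the young ones in 7 of 34 genes and wholly below in 0, beside 8.85% and 2.7% of all genes. The muscle fibre markers, which take up a large share of all TPM, were lower in 7 of 10, 4 of them without overlap, and the part of this in the result was not tested.

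Among the mitophagy genes, Bnip3 had the lowest p. Its level was 211, 232, 238 and 221 TPM in the young libraries (225 ± 11.9, SD, n = 4) and 281, 303 and 351 TPM in the aged libraries of batch 1 (312 ± 36.0, SD, n = 3). The lowest aged library was above the highest young one. The log2 difference was 0.46 (SE 0.11), 1.38-fold, with an adjusted p of 0.086 by limma. In batch 2 the vehicle libraries held 318, 368 and 335 TPM and the SW033291 libraries 299, 263 and 351 TPM, so every aged library of either batch exceeded every young one. The other 4 mitophagy genes overlapped between young and aged, with log2 differences of 0.16 to 0.26: Bnip3l (NIX), Pink1, Park2 and Fundc1, a receptor of the outer mitochondrial membrane. Replicate 4 of the aged libraries held the highest Bnip3l (65.4 TPM) and Fundc1 (38.5 TPM) of all 13 libraries, and the other 2 aged libraries of batch 1 fell within the young range for Bnip3l.

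**Figure D2:**
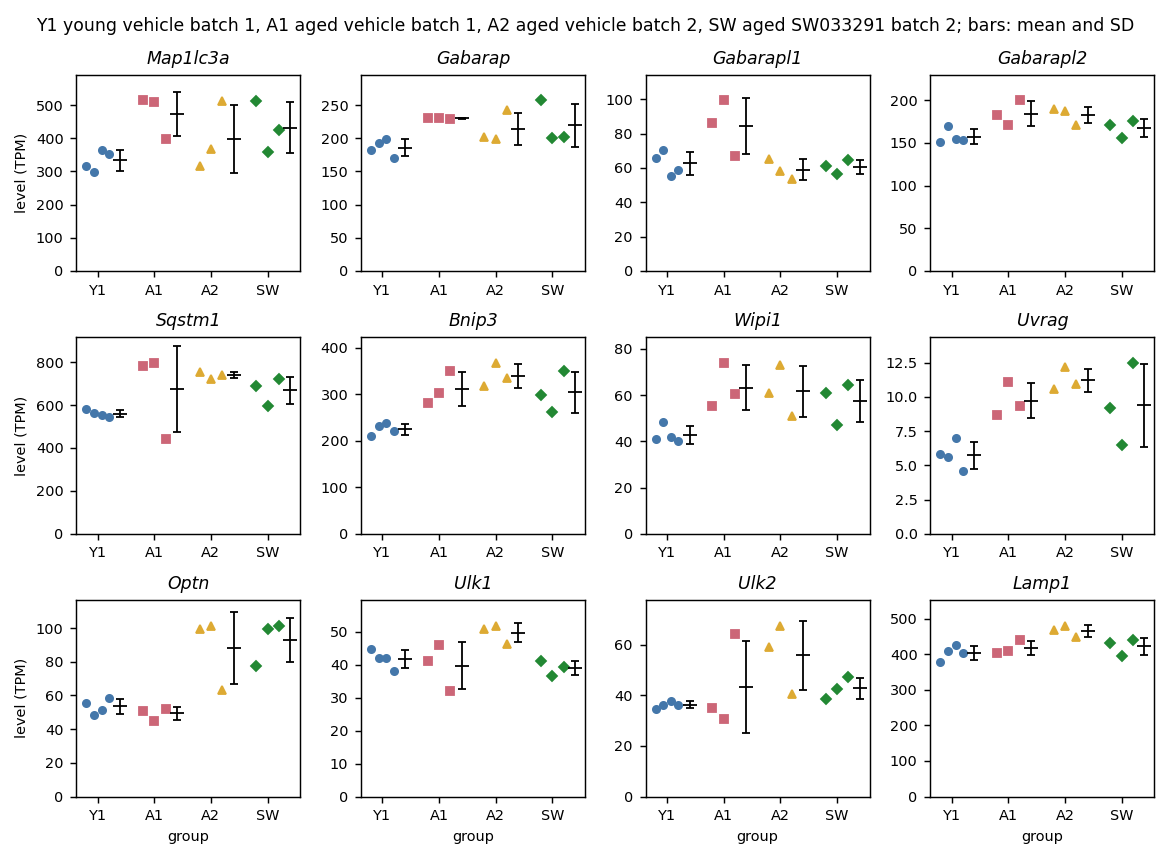
TPM in each library for 12 of the genes given library by library, 1 panel per gene, with the 4 groups along the horizontal axis and bars for the mean and SD. Bnip3 and Gabarap were above the highest young library in all 9 aged libraries, and every batch 2 library was above every batch 1 library for Optn.

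The ATG8 genes, which encode the small ubiquitin-like proteins attached to autophagosome membranes, had positive differences with age in 5 of 5 cases, with a median of 0.31, and 5 of 5 stayed positive under both rescalings tried. Map1lc3a stood at 317, 297, 366 and 352 TPM in young muscle and at 515, 510 and 397 TPM in aged muscle of batch 1. The aged libraries were all above the young, with a log2 difference of 0.50 (SE 0.16, adjusted p = 0.246, limma). In batch 2 it was 315, 366 and 511 TPM with vehicle and 512, 357 and 426 TPM with SW033291, a range that reached into the young values. Gabarap, which acts at closure of the autophagosome, was 182, 194, 198 and 169.9 TPM in young libraries and 230.2, 230.7 and 229 TPM in aged ones of batch 1, a log2 difference of 0.31 (SE 0.11, adjusted p = 0.297, limma). Its batch 2 values were 202, 199 and 242 TPM with vehicle and 257, 200.4 and 201 TPM with SW033291, so that all 9 aged libraries were above the young ones. Gabarapl2 was 151, 170.2, 154 and 153 TPM in young libraries and 182, 170.6 and 199.9 TPM in aged ones of batch 1. The groups were separated only by the small gap between young replicate 3 and aged replicate 3, and the log2 difference was 0.23 (SE 0.09, adjusted p = 0.379, limma). In batch 2, Gabarapl2 stood at 189.6, 187 and 171 TPM with vehicle and at 170.6, 156 and 175 TPM with SW033291. Gabarapl1 was 65.6, 70.6, 55.4 and 58.7 TPM in young and 86.3, 99.4 and 67.0 TPM in aged libraries, where replicate 4 lay within the young range, and differed by 0.41 (adjusted p = 0.258, limma). In batch 2 its mean with vehicle was 59.0 TPM, below the 62.6 TPM of young muscle. Map1lc3b, the LC3 form used most often as an autophagosome marker, differed by 0.17.

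Of the genes of the lipid kinase complex, Uvrag and Atg14 were separated by age and Becn1 and Pik3c3 were not. Uvrag encodes the Beclin 1 partner of the endosomal form of the complex. It was 5.82, 5.58, 6.97 and 4.57 TPM in young libraries and 8.64, 11.1 and 9.36 TPM in aged ones of batch 1. This was the largest log2 difference among the 34, 0.67 (SE 0.19, adjusted p = 0.167, limma), or 1.59-fold. Batch 2 gave 10.6, 12.1 and 10.9 TPM with vehicle and 9.21, 6.45 and 12.5 TPM with SW033291, all above the young libraries apart from SW033291 replicate 4. Atg14, the partner that brings the complex to the forming autophagosome, was 4.90, 5.17, 5.05 and 4.97 TPM in young and 5.83, 7.33 and 7.03 TPM in aged libraries, a difference of 0.36 (SE 0.18, adjusted p = 0.580, limma). In batch 2 it was 9.39, 8.12 and 6.06 TPM with vehicle and 8.16, 4.78 and 5.35 TPM with SW033291. Beclin 1 (Becn1, 0.09) and the catalytic subunit VPS34 (Pik3c3, -0.07) had overlapping groups.

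Wipi1, a protein that reads the lipid made by this complex, was 41.1, 48.4, 41.6 and 39.9 TPM in young libraries and 55.4, 73.9 and 60.5 TPM in aged ones of batch 1. The aged libraries were all higher, by 0.55 in log2 (SE 0.15, adjusted p = 0.143, limma). Its batch 2 levels were 61.0, 73.0 and 50.9 TPM with vehicle and 60.9, 47.3 and 64.2 TPM with SW033291, where replicate 4 of the treated libraries lay within the young range. The 6 genes of the conjugation machinery proper (Atg3, Atg4b, Atg5, Atg7, Atg12 and Atg16l1) had log2 differences with age from -0.07 to 0.25, and their groups overlapped.

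In the initiation complex, Atg13, the scaffold that binds ULK1, was 25.0, 25.9, 23.7 and 23.9 TPM in young libraries. In aged libraries of batch 1 it was 34.2, 32.7 and 23.1 TPM, of which replicate 4 was the lowest of all 13. The log2 difference was 0.26 (SE 0.13, adjusted p = 0.559, limma), and 0.43 without replicate 4 (adjusted p = 0.058, limma). Ulk1, the initiating kinase, differed by -0.08, and by 0.06 without replicate 4, and its paralog Ulk2 by 0.17. Ulk2 was 34.7, 36.2, 37.8 and 36.3 TPM in young libraries and 35.0, 30.6 and 64.2 TPM in aged ones of batch 1, and without replicate 4 the difference was -0.14. Rb1cc1 had the same shape, at 14.8, 14.0 and 35.0 TPM in the aged libraries against 12.1 to 17.0 in the young, and a difference of 0.35 with all libraries and -0.06 without replicate 4. In that library Ttn, the transcript of the giant sarcomere protein titin, was at 304 TPM against 138 to 170.0 in the other libraries of batch 1. Ttn is 1 of the 10 muscle fibre markers, whose sum was lowest in that library. In batch 2 Ttn was 296, 362 and 224 TPM with vehicle and 183, 231 and 261 TPM with SW033291. Rb1cc1 was 25.4, 33.7 and 17.9 TPM in those vehicle libraries and 16.4, 26.7 and 19.1 TPM with SW033291. The part of the Ttn levels in the result was not tested.

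The cargo receptor p62 (Sqstm1) crossed the threshold of the test when that library was left out. It was 581, 562, 556 and 542 TPM in young muscle and 784, 797 and 442 TPM in aged muscle of batch 1. Replicates 2 and 3 were above every young library and replicate 4 below every one of them. With all libraries the log2 difference was 0.22 (SE 0.16, adjusted p = 0.752, limma). Without replicate 4 it was 0.50 with an adjusted p of 0.014 by limma, and Sqstm1 was then the only gene of the 34 called, beside 0.775% of all genes. In batch 2, Sqstm1 was 753, 724 and 742 TPM with vehicle and 688, 596 and 721 TPM with SW033291, all above the highest young library, 581 TPM.

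Replicate 4 lay above both other aged libraries of batch 1 in 15 of the 34 genes, below both in 15 and between them in 4. It was the highest of all 13 libraries in 7 genes and the lowest in 8. Without it 12 of the 34 genes changed the sign of their difference with age, among them Fundc1 (-0.09), Ulk1, Ulk2, Rb1cc1, Lamp2, Ctsb and Ctsd. The median of the 34 was then 0.072, against 0.014 over all tested genes. When each library was weighted by how close it lay to its group, replicate 4 received a weight of 0.163, against 0.489 to 3.11 for the others. With these weights 7 genes were higher in aged muscle at an adjusted p under 0.05 (limma): Sqstm1, Map1lc3a, Gabarapl1, Atg13, Bnip3, Wipi1 and Uvrag, beside 3.04% of all genes. Set against the aged vehicle libraries of batch 2, 6 genes were called higher than in young muscle, beside 14.1% of all genes. These were Map1lc3b, Bnip3, Pink1, Optn, Wipi1 and Uvrag, and in this contrast age cannot be told apart from batch.

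**Figure D3:**
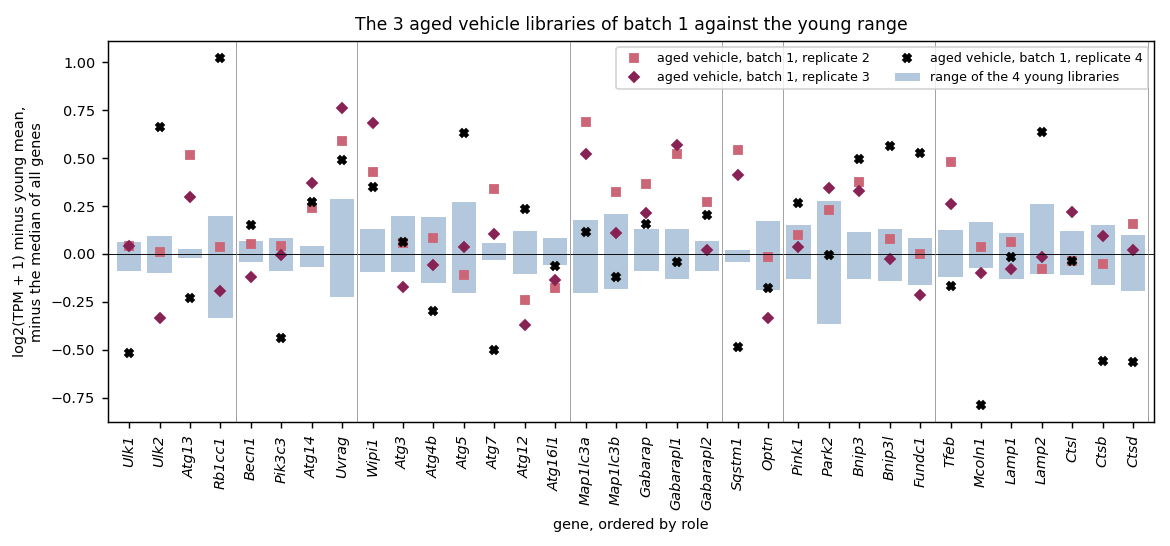
Each of the 3 aged vehicle libraries of batch 1 as a point for each of the 34 genes, as log2(TPM + 1) minus the young mean and minus the median of all genes in that library, with bars for the range of the 4 young libraries. Replicate 4 was below the young range for Sqstm1 and above it for Rb1cc1, away from replicates 2 and 3.

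Taking all 9 aged libraries, at least 8 lay above every young library in 8 of the 34 genes: Sqstm1, Gabarap, Gabarapl2, Atg13, Atg14, Bnip3, Wipi1 and Uvrag. Over all tested genes this held for 8.85%. Bnip3 and Gabarap were above in 9 of 9, as were 3.29% of all genes. These counts join both batches and treatments and carry no test.

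The authors' deposited table of young against aged vehicle lists 813 genes with adjusted p up to 0.0999, and 6.37% of the genes tested here are in it. It holds 3 of the 34 genes. In the authors' deposited table Bnip3 has a log2 fold change of 0.31 (adjusted p = 0.0440), Wipi1 0.39 (adjusted p = 0.0341) and Uvrag 0.74 (adjusted p = 1.9e-04), all higher in aged muscle. Of the other pathway lists, the authors' deposited table holds Foxo3 (1.80, adjusted p = 0.0145), Sesn3 (2.20, adjusted p = 0.0076), the proton pump subunit Atp6v1a (0.60, adjusted p = 0.0031) and the lysosomal membrane protein Scarb2 (0.51, adjusted p = 0.0067). It also holds Nbr1, Tax1bp1 and Arsb at adjusted p of 0.071 to 0.098. The libraries behind that table are not named in its header.

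The 7 lysosome genes had log2 differences with age from -0.22 (Mcoln1) to 0.25 (Tfeb) and overlapping groups. TFEB is the transcription factor that drives lysosomal genes, and Mcoln1 encodes a calcium channel of the lysosomal membrane. Tfeb was 66.2 ± 3.16 TPM (SD, n = 4) in young and 79.7 ± 12.9 TPM (SD, n = 3) in aged libraries of batch 1. Cathepsins L, B and D, the main proteases of the compartment, differed by 0.11, -0.11 and -0.07. Without aged replicate 4 these were 0.11, 0.04 and 0.11, and Mcoln1 was at -0.01, Tfeb at 0.39 and Lamp2 at -0.03. Lamp1 and Lamp2, the glycoproteins that line its membrane, differed by 0.05 and 0.24. For Lamp2 the highest value of all 13 libraries, 67.5 TPM, was in aged replicate 4, and the other 2 aged libraries of batch 1 held 35.2 and 41.1 TPM against 35.4 to 48.4 in the young.

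TFEB binds an extended E-box, here searched as TCACGTGA, which reads the same on both strands and contains the shorter E-box CACGTG. RefSeq promoter windows (build GRCm38.p6, from 250 bases before to 50 after the start) were matched by symbol to 25 of the 34 genes. The long motif was found in 3 of the 25 (Atg3, Mcoln1 and Ctsd) and in 0.974% of all 32851 windows. The core was found in 9 of the 25, among them Bnip3, and in 7.15% of all windows. The forkhead motif TGTTTAC or its reverse complement GTAAACA, bound by FoxO factors, was in 0 of the 25 genes' windows and in 3.65% of all. A gene was counted if any of its windows held the motif, while the shares of all are shares of single windows. These counts and shares are therefore not of the same unit. A match is a run of letters in a window, and no binding was measured. The stretch from 130 to 31 bases before the start is shown for the 3 genes with the long motif and for Bnip3. Bnip3 was the gene of lowest p with age and has the core only. Neither Bnip3 nor any other of the 34 genes passed the test with age or with SW033291. Capitals mark TCACGTGA where the whole motif is present and otherwise CACGTG.
Bnip3 (chr7:138909537-138909636, minus strand): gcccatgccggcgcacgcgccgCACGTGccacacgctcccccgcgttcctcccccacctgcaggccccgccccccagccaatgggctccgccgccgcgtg
Atg3 (chr16:45158699-45158798, plus strand): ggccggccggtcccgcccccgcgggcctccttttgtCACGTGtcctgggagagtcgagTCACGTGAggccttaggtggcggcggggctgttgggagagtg
Ctsd (chr7:142387858-142387957, minus strand): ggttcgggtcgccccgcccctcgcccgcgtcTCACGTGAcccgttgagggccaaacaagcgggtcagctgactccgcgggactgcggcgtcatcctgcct
Mcoln1 (chr8:3500389-3500488, plus strand): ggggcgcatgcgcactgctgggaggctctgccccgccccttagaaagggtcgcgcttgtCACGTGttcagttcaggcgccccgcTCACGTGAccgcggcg
The core begins 108 bases before the start in Bnip3, 94 and 71 before in Atg3, 98 before in Ctsd, which holds another outside the stretch at 245, and 71 and 45 before in Mcoln1. Windows were not used for Map1lc3a, Becn1, Atg12, Atg16l1, Bnip3l, Park2, Rb1cc1, Pik3c3 and Ctsb.

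SW033291 in aged muscle of batch 2 was followed by no call, in the 34 genes or in any of the 11876 (limma, 0% called). At an unadjusted p under 0.05 there was 1 of the 34, Ulk1, beside 10.3% of all genes (1221). The values of all genes were shifted: the median log2 difference, treated minus vehicle, was -0.13 over all tested genes. Rescaling libraries by the median of ratios brings this median near 0 by its construction. The 34 genes had the same median, -0.13. Relative to the median of all genes, 17 of them were above and 17 below, while 5 of 34 were positive as measured, beside 28.9% of all genes. Under the rescaling, 15 of the 34 changed sign, so directions within this comparison depend on it.

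**Figure D4:**
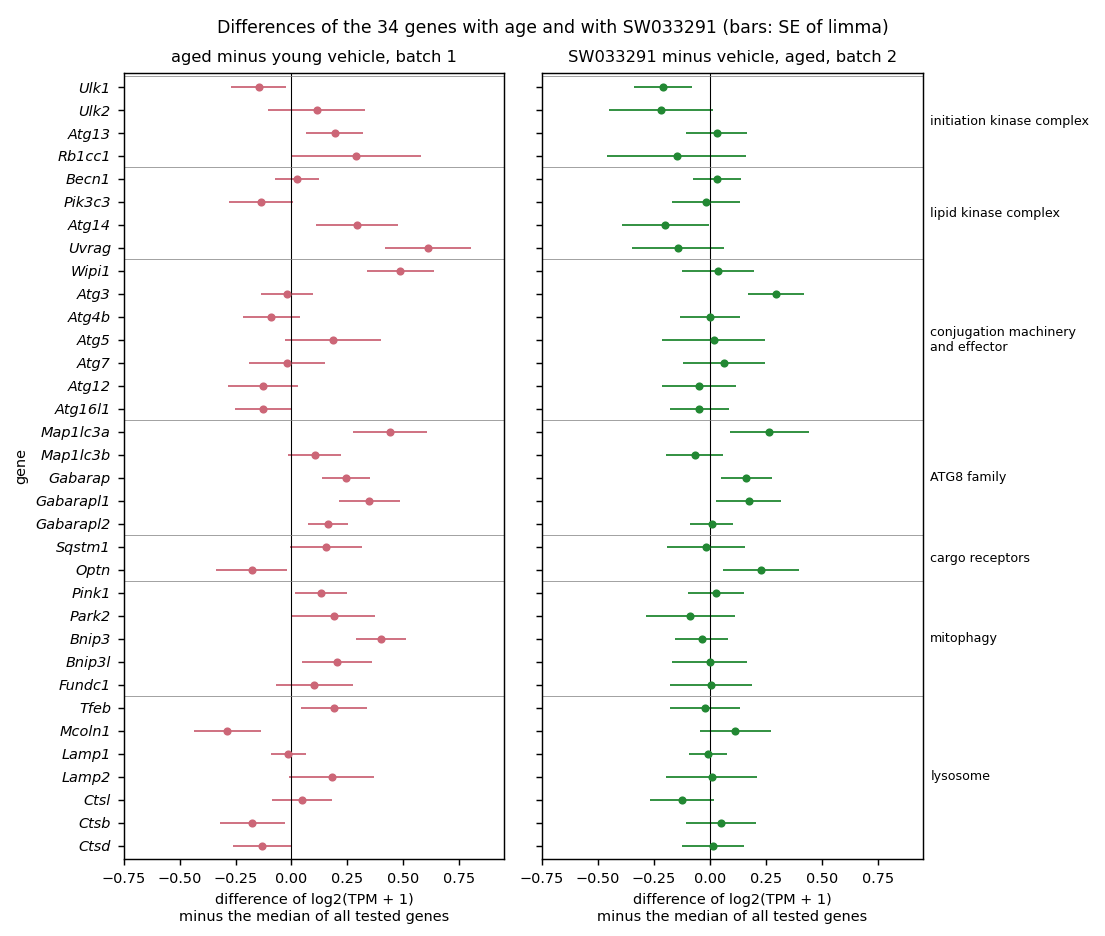
Log2 differences of the 34 genes, minus the median of all tested genes, with age (left) and with SW033291 (right), with bars for the SE and genes grouped by role. With age all 5 ATG8 genes and all 5 mitophagy genes lie to the right of the line. Optn, grouped with the cargo receptors, lies to the left at -0.18. Without aged replicate 4 and before subtracting the median, Fundc1 was at -0.09, Bnip3l at 0.04 and Pink1 at 0.08. Park2 was then at 0.31 and Bnip3 at 0.37. With SW033291 17 of 34 genes lie on either side of the line.

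Ulk1 was 50.8, 51.8 and 46.4 TPM in the vehicle libraries and 41.0, 36.7 and 39.2 TPM in the SW033291 libraries of batch 2. The treated libraries were all lower, by -0.34 in log2 (SE 0.13, adjusted p = 0.418, limma), or -0.21 relative to the median of all genes. In batch 1 Ulk1 was 44.8, 42.1, 42.2 and 38.2 TPM in young and 41.2, 46.0 and 32.0 TPM in aged libraries, so the treated values lay within the range of batch 1 and the vehicle values of batch 2 above it. Both statements rest on the same 3 vehicle libraries. Ulk2 had the largest difference, -0.35 (SE 0.23, adjusted p = 0.594, limma), at 59.2, 67.5 and 40.6 TPM with vehicle and 38.7, 42.4 and 47.2 TPM with SW033291, and the groups overlapped. Atg13 was 32.3, 31.1 and 31.3 TPM with vehicle and 29.1, 28.1 and 31.0 TPM with SW033291. All treated libraries were lower, by -0.10 (adjusted p = 0.785, limma), which is 0.03 above the median of all genes.

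Further genes whose treated libraries lay wholly below the vehicle ones were Sqstm1, Atg12 and Lamp1, making 5 of 34 with Ulk1 and Atg13, beside 15.1% of all genes. Sqstm1, with the values given above, differed by -0.15 (SE 0.17, adjusted p = 0.751, limma). Atg12, the ubiquitin-like partner of ATG5, was 33.2, 40.3 and 32.7 TPM with vehicle and 32.1, 32.6 and 28.3 TPM with SW033291, a difference of -0.18 (SE 0.17, adjusted p = 0.691, limma). In batch 1 it was 26.0, 27.1, 29.0 and 27.0 TPM in young and 21.9, 22.4 and 35.7 TPM in aged libraries. Lamp1 was 469, 481 and 448 TPM with vehicle and 431, 395 and 442 TPM with SW033291, a difference of -0.14 (SE 0.08, adjusted p = 0.561, limma). The Lamp1 values of batch 1 were 379.6, 409, 427 and 404 TPM in young and 405, 410.0 and 442 TPM in aged libraries. Relative to the median of all genes, these differences were -0.02, -0.05 and -0.01.

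Atg3, the enzyme that transfers ATG8 proteins to lipid, was the only gene of the 34 whose treated libraries were wholly higher, beside 1.95% of all genes. It was 23.1, 23.7 and 21.2 TPM with vehicle and 27.2, 24.0 and 25.1 TPM with SW033291, a log2 difference of 0.16 (SE 0.12, adjusted p = 0.635, limma). In batch 1 it was 19.7, 19.9, 22.6 and 18.2 TPM in young and 20.0, 18.9 and 23.3 TPM in aged libraries. The ATG8 genes differed by -0.20 to 0.13, and the mitophagy genes by -0.22 to -0.11. Bnip3, Wipi1 and Uvrag, the genes of lowest p with age, differed by -0.17, -0.10 and -0.27 with overlapping groups and adjusted p of 0.616, 0.826 and 0.630 (limma).

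All 34 genes are in the authors' deposited table of SW033291 against vehicle. Of the values in the authors' deposited table, 22 are higher and 12 lower with SW033291, the lowest unadjusted p is 0.152 (2.74% of its genes are under 0.05) and the median log2 fold change is 0.01, beside 49.9% of all its genes higher. The values of the 34 genes in the authors' deposited table and those computed here had a Pearson r of 0.911 across genes, which are not independent replicates. A Pearson r takes no account of a shift common to all genes, and the directions differed. Here 5 of the 34 were positive as measured, with a median of -0.13, and 20 were positive under median-of-ratios scaling.

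Between batches, the aged vehicle groups carry the same labels. Optn alone of the 34 was called there, beside 2.25% of all genes. Optineurin is a cargo receptor for damaged mitochondria and bacteria. It was 50.6, 45.1 and 52.2 TPM in the aged vehicle libraries of batch 1 and 99.4, 101.4 and 63.2 TPM in those of batch 2. All batch 2 libraries were higher, by 0.79 in log2 (SE 0.17, adjusted p = 0.032, limma), or 1.73-fold. The young libraries, 55.7, 48.3, 51.5 and 58.6 TPM, lay near the aged ones of batch 1, and the SW033291 libraries, 77.7, 99.3 and 101.4 TPM, near those of batch 2. The call was lost without replicate 2 (adjusted p = 0.109) or 3 (0.076) of the aged vehicle libraries of batch 1, or without replicate 2 (0.130) or 3 (0.160) of those of batch 2, by limma. It was also lost under median-of-ratios scaling (0.081), quantile normalization (0.070) and a fit of the 2 groups alone (0.287), and without the libraries rich in neutrophil transcripts (0.054). In these fits the log2 difference itself was 0.65 to 0.81. The labels name the batches without saying how they differed.

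Other genes of the same pathways were taken from lists of 30 core autophagy, 15 mitophagy, 43 lysosomal hydrolase, 43 lysosomal membrane and proton pump, and 33 upstream regulator genes. None passed the test with age or with SW033291 (limma). With age, 33 of the 43 lysosomal membrane and proton pump genes were positive, with a median of 0.13, and 12 of them had aged libraries wholly above the young, beside 8.85% of all genes. The hydrolases were positive in 20 of 43, with a median of -0.03. Of the membrane genes the lowest p belonged to the tetraspanin Cd63 (0.44, adjusted p = 0.109) and the cholesterol exporter Npc1, lower at -0.56 (adjusted p = 0.141). Among hydrolases they were Hexa (0.37, adjusted p = 0.164), a subunit of beta-hexosaminidase, and arylsulfatase B, Arsb (-0.54, adjusted p = 0.468). The mitochondrial fission adaptor Fis1 differed by 0.35 (adjusted p = 0.091) and Bcl2l13, a mitophagy receptor, by 0.23 (adjusted p = 0.576). Atg4a, a protease that trims ATG8 proteins, differed by 0.47 (adjusted p = 0.237) and the cargo receptor Nbr1 by 0.27 (adjusted p = 0.383). The stress-induced sestrins Sesn3 and Sesn1, which restrain mTORC1, differed by 1.28 (adjusted p = 0.190) and 0.71 (adjusted p = 0.297), all by limma.

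With SW033291, the lowest p in each list belonged to genes with lower means in treated muscle, apart from the hydrolases. They were Igf2r, the receptor that sorts hydrolases to the lysosome (-0.64, adjusted p = 0.394), its relative in sorting Sort1 (-0.46, 0.397), the lipid transfer gene Atg2b (-0.58, 0.394), Atg16l2 (-0.59, 0.418), Bcl2l13 (-0.40, 0.407), Fis1 (-0.19, 0.497), Fnip2, a partner of folliculin (-0.53, 0.434), and Mtor (-0.38, 0.452), each with its log2 difference and limma adjusted p. The hydrolases Glb1 (0.58, adjusted p = 0.418) and Gla (0.54, adjusted p = 0.434) had higher means, at group means of 0.96 to 2.91 TPM. Igf2r, Mtor and Atg2b also differed between the aged vehicle groups, by 0.95, 0.72 and 0.68 (limma, adjusted p = 0.017, 0.037 and 0.044), as did Rptor, Nbr1 and Mfn1. Mean Igf2r was 14.1 TPM in aged vehicle libraries of batch 1, 28.7 in those of batch 2 and 17.7 with SW033291. These comparisons share the vehicle libraries of batch 2.

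Markers of other cell types differed between libraries. Fibroblast markers summed to between 379 and 461 TPM in young libraries and between 154 and 411 TPM in aged ones of batch 1. All 6 had negative differences with age, 2 without overlap (2.7% of all genes), and 1 was called lower (limma, adjusted p = 0.016). Col1a1 was 40.3 to 51.0 TPM in young libraries and 7.01 to 14.7 TPM in aged ones of batch 1. Adipocyte markers were highest in young replicates 1 and 3 (3053 and 2033 TPM) and SW033291 replicate 1 (3526 TPM), against at most 1243 TPM elsewhere. Macrophages, which are rich in lysosomes, had markers that summed to between 62.3 and 160.0 TPM in young and 67.0, 68.9 and 225 TPM in aged libraries of batch 1, highest in replicate 4. Lyz2 alone was 164 TPM in that replicate, against 27.0 to 60.3 TPM in the other libraries of batch 1. Of the 8 macrophage markers tested, 6 had negative and 2 positive differences with age. In batch 2 the macrophage markers summed to 71.3 to 146 TPM with vehicle and 79.4 to 123 TPM with SW033291. Of the 8 neutrophil markers found, S100a9, Elane, Mpo, Camp and Ngp were at 0 in all young libraries. Red cell markers summed to 2105 TPM in aged replicate 4 of batch 1 and 1173 TPM in vehicle replicate 2 of batch 2, against 133 to 552 TPM elsewhere, and endothelial markers to 66.7 to 145 TPM over all libraries. The part of these cells in the levels of the 34 genes was not tested. When the 3 libraries with over 50 TPM of the neutrophil gene S100a9 were left out together, a choice made after seeing the data, 1 of the 34 genes was called with age (Sqstm1, beside 0.598% of all genes) and none with SW033291.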

How the data were processed

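Libraries were made from quadriceps total RNA with an Illumina TruSeq RNA kit, per the labels' protocols. STAR, RSEM, DESeq2, DESeq and the build mm9 are named in the submitters' processing notes, with no version given in the sources used here. Per gene, the authors deposited TPM for 13 libraries. In that table the gene names did not stand on their own rows: 27 names had become spreadsheet dates. These were undone, the names sorted by character code and assigned to the rows in order. Means over all batch 2 libraries then correlated with the base means of the authors' table of SW033291 against vehicle. Across 23988 genes the Spearman correlation was 0.960, against -0.02 as deposited and at most 0.510 when moved by 1 row. Log2 differences for SW033291 had a Pearson r of 0.928 over the 6361 genes with a base mean of 50 or more. For age the Pearson r was 0.787 over the 813 genes that the authors listed. These correlations check the order as a whole, and the row of any single gene was not checked by itself. The authors' 2 comparison tables hold, per the file headers, a base mean (a signal of normalised counts), log2 fold changes, a test score and p-values from DESeq2.

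Genes that reached 1 TPM in 3 or more libraries were tested with limma 3.58.1 (R 4.3.3) on log2(TPM + 1), with 1 coefficient per group over all 13 libraries, a trend in the variance and Benjamini-Hochberg adjustment over 11876 genes at 0.05. Fold changes on this scale understate changes of low genes. The members, lists and markers were chosen with earlier results of these data known. Values per library are given for genes called in a comparison, those whose groups did not overlap with age or SW033291, and the 3 with the largest difference in each. Of the other lists, genes called and the 2 of lowest p were named. Rubcn, Adgre1 and Ly6g were not analysed here. Alternatives were a pseudocount of 0.1, no filter, median-of-ratios and quantile scaling, fits on the groups compared alone, array weights, a replicate block, libraries left out, and the aged vehicle libraries of batch 2. Promoter sequences are from RefSeq (GRCm38.p6), a build other than that of the files, and were matched by symbol.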

Additional observations from a re-analysis of the deposited data

Results flagged for a closer look

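In the 4 young libraries, each of the 34 genes was checked for a highest or lowest library far from the others, measured by its gap to the nearest library as a share of the range and a limit of 0.829. Chance alone marks about 1 in 20 such groups. Of 34 groups 3 were marked, all through young replicate 3. Gabarapl2 was highest there at 170.2 TPM, against 151 to 154 TPM in the other 3 libraries. Lamp2 was highest at 48.4 TPM, against 35.4 to 37.0 TPM, and Ctsd was lowest at 595.7 TPM, against 672 to 687 TPM. That library and young replicate 1 also held the most adipocyte marker transcripts of the young group, 2033 and 3053 TPM, and the part of this in the 3 values was not tested. The gap of Gabarapl2 between young and aged muscle was set by this library.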

How the results depend on the processing

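The count of 0 genes called with age became 7 with array weights, 6 with the aged vehicle libraries of batch 2 and 1 without the neutrophil-rich libraries, and ranged from 0 to 1 when single libraries were left out. The median difference with age, 0.18, was 0.11 with median-of-ratios scaling, 0.0768 with quantile normalization, 0.0775 with array weights, 0.28 with the batch 2 libraries and 0.0722 without the neutrophil-rich libraries, and ranged from 0.0722 to 0.196 with single libraries left out. Minus the median of all tested genes, it was 0.12 in the main fit, 0.11 with median-of-ratios scaling and 0.12 with the batch 2 libraries. Relative to all genes it was 0.08 with quantile normalization, 0.05 with array weights and 0.06 without the neutrophil-rich libraries. With single libraries left out this excess ranged from 0.0586 to 0.148. Optn differed from young by -0.11 in batch 1 and by 0.68 with the batch 2 libraries (limma, adjusted p = 0.015). With SW033291 the count was 0 in all settings run. The median of -0.13 was 0.0135 with median-of-ratios scaling, -0.0183 with quantile normalization, -0.25 with the replicate block and -0.0914 without the neutrophil-rich libraries, and ranged from -0.176 to -0.0814 with single libraries left out. Minus the median of all tested genes, it was 0.003 in the main fit and 0.017 with median-of-ratios scaling. Relative to all genes it was -0.008 with quantile normalization, -0.054 with the replicate block and 0.013 without the neutrophil-rich libraries. Signs changed in 15 of 34 genes under median-of-ratios and 10 under quantile scaling with SW033291, and in 3 under each with age. Between batches the count of 1 was 0 with median-of-ratios scaling, quantile normalization or the 2 groups alone, 5 with array weights and 2 without the neutrophil-rich libraries (Gabarapl1 and Atg12, not Optn), and ranged from 0 to 5 with single libraries left out. The cause of these changes was not tested.

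Over all genes, the 54 calls with age were 27 with no filter, 24 with the 2 groups alone, 361 with array weights, 11 with the replicate block and 19 to 92 with single libraries left out (92 without aged replicate 4 of batch 1). The 267 calls between batches were 144 and 98 under the scalings, 1 with the 2 groups alone, 1766 with array weights, 70 with the replicate block, 1037 without the neutrophil-rich libraries and 18 to 1643 with single libraries left out (1643 without aged replicate 4 of batch 1). With SW033291 there were 4 with a pseudocount of 0.1, 4 without the neutrophil-rich libraries and at most 1 with single libraries left out. The replicate numbers are shared without a stated pairing, and the batch 2 groups share none. For young and aged libraries of batch 1 with the same number, the deviations of each gene from its group means correlated at 0.171 and 0.040. These are not correlations of the levels themselves. With the replicate block, 0 of the 34 genes were called with age (median 0.17), 0 with SW033291 and 1 between batches. TPM give no depth, so counting error could not be separated from the spread between libraries, also for the low genes Park2, Atg14 and Atg7.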
